A study of Mus musculus with 6 samples.

Results

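The cytosolic heat shock chaperones and their regulators were followed in RNA from mouse RPE/choroid, the pigmented epithelium that nourishes the photoreceptors together with the vessel-rich layer it rests on. The genes were chosen by symbol, and all 10 were found among the 33924 gene symbols of the table. They are the HSP70 genes Hspa1a, Hspa1b and Hspa8, the HSP110 gene Hsph1, the HSP90 genes Hsp90aa1 and Hsp90ab1, the small heat shock protein gene Hspb1, the J-domain gene Dnajb1, the transcription factor gene Hsf1 and the co-chaperone gene Bag3. Libraries came from C57BL/6J mice, 3 young and 3 aged, with 2 eyes in each sample. The titles put the young mice at 1-2 months and the aged mice at 20-24 months, while the time label of the aged mice reads 22-24 months. All are labelled male, although the study's methods name both sexes and an older age for the young group. No treatment, transgene or mutation was named for either group. RNA was not selected for poly(A) tails, and ribosomal RNA was removed.

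Only 1 level per gene was used here, the authors' mean over the 6 libraries in normalized counts, with young and aged mice pooled. The values per mouse were not analysed here, so no level below has an SD, an interval or a test, and young and aged mice were not compared. A difference between the levels of different genes could therefore not be set against the spread between mice. In RNA from a whole tissue, fewer cells of one type and less RNA per cell cannot be told apart.

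Heat shock proteins hold unfolded proteins apart and help them fold. HSP70 proteins bind exposed stretches of a client and release them in a cycle driven by ATP, in which J-domain proteins such as DNAJB1 deliver clients and HSP110 and BAG proteins exchange the nucleotide. HSP90 proteins take over clients such as kinases and hormone receptors at a late stage of folding. In resting cells HSF1 is kept inactive by chaperones, and under stress it binds heat shock elements in DNA, arrays of the unit NGAAN in alternating direction, and raises the stress-inducible genes. The RPE takes up shed photoreceptor outer segments daily and works under bright light and a high oxygen supply.

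The tissue label was checked against defining markers. All 10 RPE markers had a level of at least 10 normalized counts, as did 17975 of the 26681 genes above 0. The markers ran from 69.8 for Best1 to 99321 for Ttr, with Rpe65 at 43745. Of the 10, 9 exceeded the median gene above 0, which had 82.1, and Best1 did not. Markers of other cells were also present. All 6 rod photoreceptor markers lay between 1963 and 48191, all 6 skeletal muscle markers between 6379 and 51830, all 5 fibroblast markers between 5470 and 45848, and all 6 endothelial markers between 1025 and 6377. The 5 lens markers lay between 112 and 1973, and 4 macrophage markers between 303 and 4063, while Adgre1 was not matched by symbol. The 6 genes listed as melanocyte markers, which lay between 3993 and 89145, are pigment genes that RPE cells can express too and do not tell the pigmented cell types apart. None of the markers matched was at 0, so the chaperone levels below belong to a mixture of cells. The part of each cell type in them was not tested.

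Several of these genes have near-identical copies elsewhere in the genome, and the sequences show how near. Hspa1a, at chr17:34969190-34972156 on the minus strand of GRCm38, and Hspa1b, at chr17:34956436-34959238 on the same strand, each consist of 1 exon and lie 9951 bases apart. Their coding sequences of 1926 and 1929 bases differed at 8 of 1926 aligned positions (99.6% identical), and the longest identical run was 638 bases. Hspa8, at chr9:40800984-40810087 on the plus strand with 9 exons, encodes the constitutive HSP70 and was 74.7% identical to Hspa1a. The stretch from coding base 1327 to 1416 is shown because it separates the 3 HSP70 genes. Capitals in Hspa1a mark where Hspa1b differs, and capitals in the other lines mark where they differ from Hspa1a, at 2 positions in Hspa1b and 25 of 90 in Hspa8.
Hspa1a: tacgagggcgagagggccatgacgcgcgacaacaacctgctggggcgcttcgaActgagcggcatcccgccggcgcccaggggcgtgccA
Hspa1b: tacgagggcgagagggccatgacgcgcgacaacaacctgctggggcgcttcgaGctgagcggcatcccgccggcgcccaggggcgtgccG
Hspa8: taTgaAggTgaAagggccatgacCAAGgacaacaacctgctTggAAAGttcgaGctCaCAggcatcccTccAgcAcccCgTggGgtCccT

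Hsp90aa1, the stress-inducible cytosolic HSP90, lies at chr12:110690605-110702728 on the minus strand with 11 exons. Hsp90ab1, the constitutive form, lies at chr17:45567775-45573271 on the minus strand, also with 11 exons. Their coding sequences were 76.6% identical. A far closer sequence is the pseudogene Gm12346 at chr11:77293444-77295898, which matched the coding part of Hsp90aa1 at all but 11 of 2202 positions. Coding bases 166 to 255 of Hsp90aa1 are shown because the pseudogene and the real paralogue differ there to such unequal extents. Capitals in Hsp90aa1 mark the 3 positions where Gm12346 differs, and in the other lines the positions that differ from Hsp90aa1, 25 of them in Hsp90ab1.
Hsp90aa1: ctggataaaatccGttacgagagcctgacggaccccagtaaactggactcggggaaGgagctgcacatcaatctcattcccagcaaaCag
Gm12346: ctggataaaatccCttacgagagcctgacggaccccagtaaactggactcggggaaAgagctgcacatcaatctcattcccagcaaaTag
Hsp90ab1: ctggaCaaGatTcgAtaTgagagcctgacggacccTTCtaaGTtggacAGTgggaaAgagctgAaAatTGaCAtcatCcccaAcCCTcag

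The 10 genes fell into a high and a low group. Hspa8 had 12600.5 normalized counts and ranked 108 of the 26681 genes above 0. Hsp90ab1 had 9027 and ranked 186, and Hsp90aa1 had 7982 and ranked 235. These 3 genes lay in the top 1% of the table by rank and held 88.4% of the level summed over the 10 genes. That sum was 33487 normalized counts, or 0.174% of the sum over the whole table.

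The other 7 genes spanned 244.7 to 1259 normalized counts. Those not yet placed lie at chr5:149614287-149636376 on the minus strand (Hsph1, 18 exons), chr8:83608193-83612653 on the plus strand (Dnajb1, 3 exons), chr7:128523616-128546981 on the plus strand (Bag3, 4 exons), chr15:76477422-76501913 on the plus strand (Hsf1, 13 exons) and chr5:135887919-135889563 on the plus strand (Hspb1, 3 exons). Hsph1, whose protein exchanges the nucleotide of HSP70, was the highest of them at 1259 (percentile 86.0 among genes above 0). Dnajb1, the J-domain partner, followed at 792.0 (percentile 78.9), and Bag3, which links HSP70 to selective autophagy, had 494.6 (percentile 71.5). The stress-inducible HSP70 genes were lower still. Hspa1b had 441.2 normalized counts (percentile 69.7) and Hspa1a had 244.7, the lowest of the 10 (percentile 61.1). Hsf1, the regulator, had 336.5 (percentile 65.6) and Hspb1, which encodes the small chaperone HSP25, had 308.8 (percentile 64.2). Every one of the 10 exceeded the median gene above 0, which had 82.1 normalized counts. Against protein-coding genes alone, whose median was 333.0, Hspa1a and Hspb1 fell below the median, and among genes of at least 10 normalized counts Hsf1 did so as well.

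**Figure D1:**
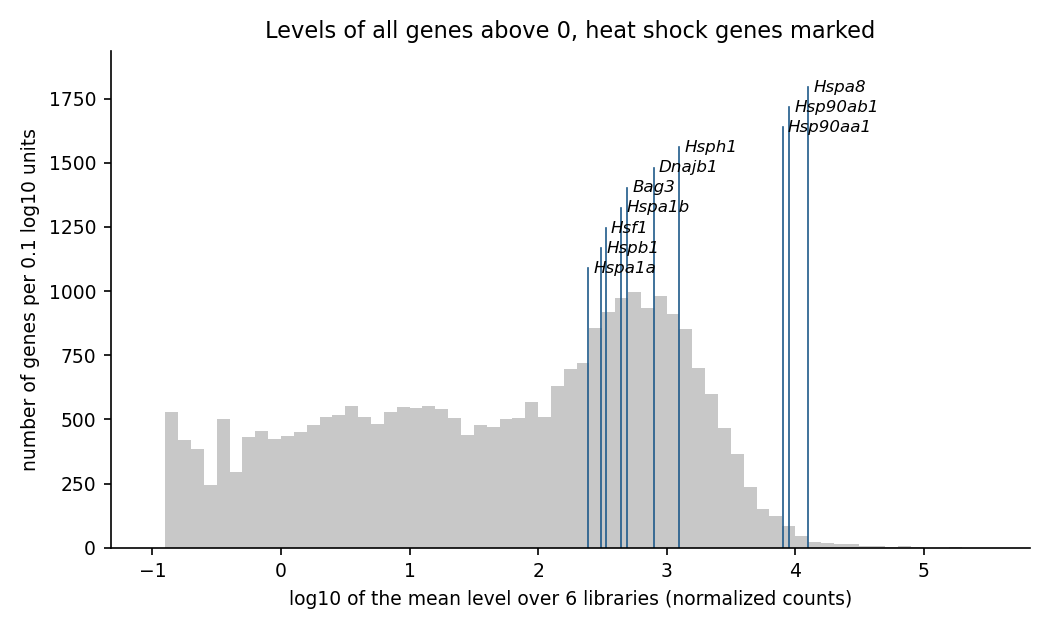
Histogram of the authors' mean level over the 6 libraries for the 26681 genes above 0, on a log10 axis in normalized counts, with a vertical line at each of the 10 heat shock genes (line heights only separate the names). Hspa8, Hsp90ab1 and Hsp90aa1 stand in the upper tail between 7982 and 12600.5 normalized counts, and the other 7 lie between 244.7 and 1259, within the main body of the distribution.

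Levels of different genes were next compared per kilobase of the longest annotated transcript. The study's methods speak of TPM, a unit already divided by transcript length, turned into normalized counts by total count, and do not say whether the division by length was kept. The levels were treated as not divided by length because they rose with it: over 13847 protein-coding genes of at least 10 normalized counts, the median level rose from 261 to 1009 between the shortest and the longest of 5 equal classes of transcript length. If they were already divided by length, the values per kilobase would understate long transcripts, and the undivided levels above would be the ones to compare. Per kilobase, Hspa8 led with 3990 normalized counts, followed by Hsp90ab1 with 3582 and Hsp90aa1 with 2433. After a gap of 7.33-fold came Hspb1, a short transcript of 930 bases, with 332, so the small chaperone rose from place 9 by level to place 4 per kilobase. Dnajb1 and Hsph1 both stood at 264 per kilobase. Bag3 followed with 193, Hspa1b with 157, Hsf1 with 107 and Hspa1a with 82.5. The lengths used for Hspa8, Hsph1 and Hsf1 are those of transcripts with a retained intron. Apart from the gap after Hsp90aa1, neighbours in this order differed by 1.00-fold to 1.47-fold, and without values per mouse none of those steps can be said to exceed the spread between animals.

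The choice of length moved the order. Per kilobase of coding sequence, Dnajb1, whose coding part is 1023 of 2996 bases, rose to 774 and stood above Hspb1 at 490.2 and Hsph1 at 489. With the median protein-coding transcript, which is only 614 bases for Hsp90ab1 and 711 for Hsp90aa1, the HSP90 genes stood at 14703 and 11226 and above Hspa8 at 6241. Hsph1 then had 412 against 271 for Dnajb1, and with the longest protein-coding transcript 331 against 264, so the order of these 2 genes turned with the length used. Hspa8 had 5263 with the longest protein-coding transcript. Hsf1 then had 160 and passed Hspa1b at 157, as it did with the median one at 167. The gap below the first 3 genes was 4.68-fold with coding length, 15.1-fold with the median protein-coding transcript and 7.33-fold with the longest one. In each of these settings Hspa8 and the HSP90 genes held the first 3 places and Hspa1a the last. That last place did not hold on the scale of unshared sequence given further on.

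**Figure D2:**
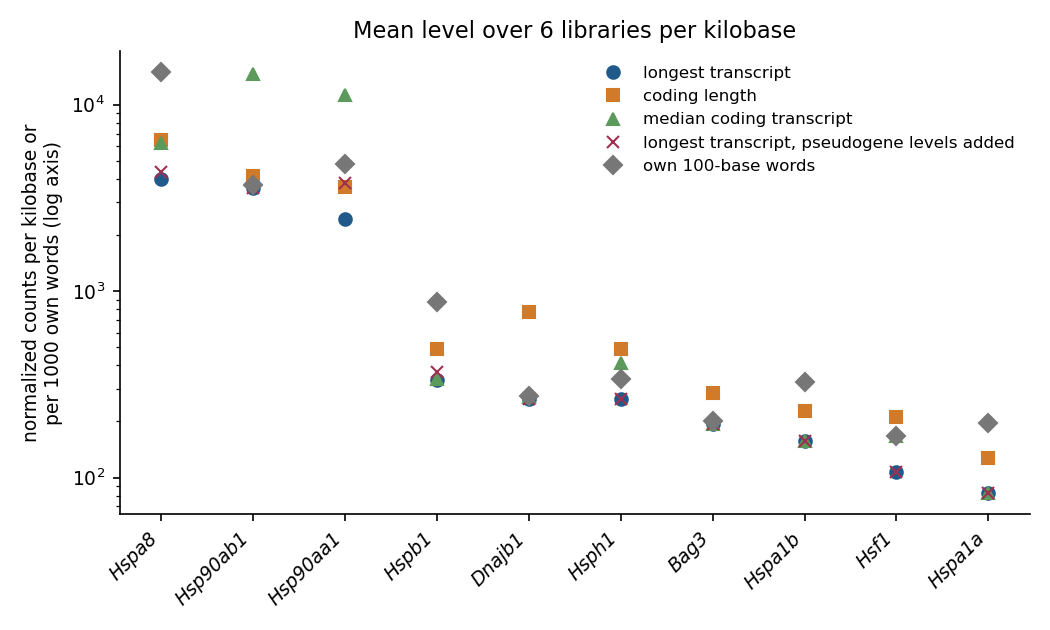
Level of each heat shock gene in normalized counts per kilobase on a log axis, from the authors' mean over 6 libraries, divided by 3 different lengths, with pseudogene levels added, and per 1000 of its own 100-base words. Hspa8, Hsp90ab1 and Hsp90aa1 stay at or above 2433 on every scale and the other 7 stay at or below 880, while the order inside both groups depends on the scale.

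Among the HSP70 genes, Hspa8 held 94.3% of the level per kilobase summed over Hspa8, Hspa1b and Hspa1a. Hspa1b held 3.72% and Hspa1a 1.95%. The constitutive gene thus exceeded the inducible pair together by 16.6-fold per kilobase, and Hspa1b exceeded Hspa1a by 1.91-fold. The first of these ratios was 26.0 with the median protein-coding transcript, 28.8 per own 100-base word and 33.7 per own 31-base word, scales explained further on. With the related Hspa1l and Hspa2 added to the sum, the share of Hspa8 was 91.2%. Hspa1l, a gene of male germ cells that begins 546 bases beyond Hspa1a, had 22.8 normalized counts. The predicted gene Gm20481 covers 2225 bases of Hspa1a on the opposite strand and was listed at 0. The snoRNA genes Snord14c, Snord14d and Snord14e inside Hspa8 were likewise listed at 0.

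Of the HSP90 pair, Hsp90ab1 held 59.6% of the summed level per kilobase and exceeded Hsp90aa1 by 1.47-fold. Without division by length the ratio was 1.13 and the share 53.1%. The order of the pair turned when the copies of Hsp90aa1 were counted with it, as follows.

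How much of each transcript can be told from other genes was measured as the share of its 31-base words, the overlapping stretches of that length, that occur in no other annotated gene on either strand. For Hsph1, Bag3, Hsf1 and Dnajb1 the share was 98.9% to 100%. Hsp90ab1 kept 83.4%. The remaining 5 genes had less of their sequence to themselves than they shared. The share was 20.3% for Hspa8, 29.9% for Hspa1a, 31.8% for Hspa1b, 34.6% for Hspb1 and 37.1% for Hsp90aa1. With words of 100 bases, the length of a read, these shares were 36.6%, 43.5%, 50.1%, 43.7% and 52.5%. Reads came in pairs from a stranded kit, so shares of single words on either strand can understate what can be told apart. The scale of own words used further on has the same limit. Shared words lay mostly in the coding part. Of the coding words of Hspa8 only 5.18% were its own, against 84.1% in the rest of the transcript, and in Hsp90aa1 the values were 8.47% and 94.7%.

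**Figure D3:**
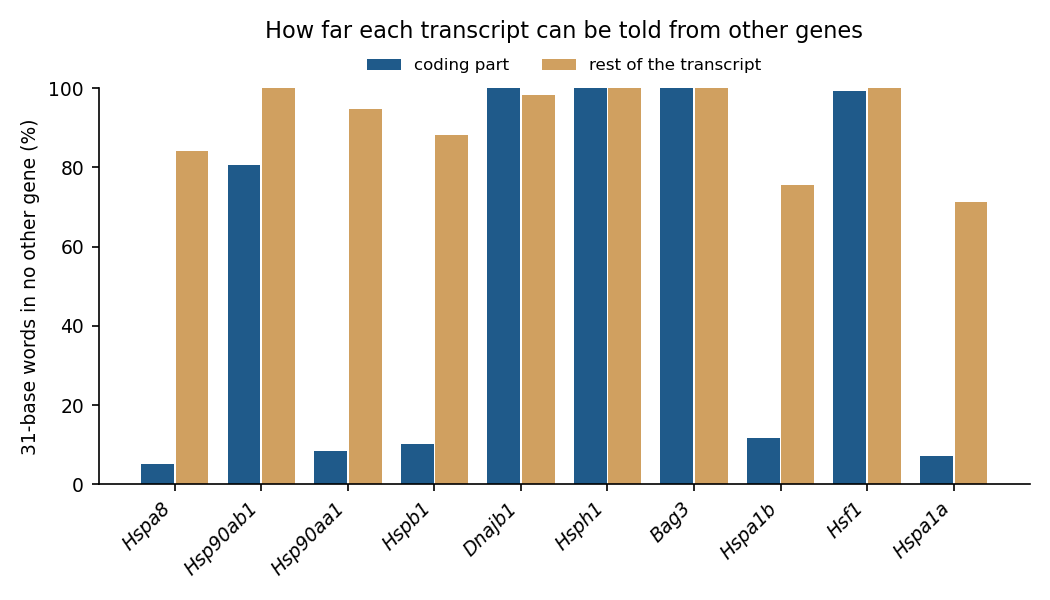
Share of 31-base words found in no other annotated gene, in percent, for the coding part (blue) and the rest (tan) of the transcript with the longest coding part of each heat shock gene. The coding parts of Hspa8, Hsp90aa1, Hspb1, Hspa1b and Hspa1a keep 5.18% to 11.7% of their words, whereas Hsph1, Bag3, Dnajb1 and Hsf1 keep 99.4% or more.

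The partners differed by class. Hspa1a and Hspa1b shared 1873 words with each other, 63.8% of those in Hspa1a and 67.5% of those in Hspa1b, so their separate levels, and the 1.91-fold difference between them, are uncertain. For Hspa8, Hsp90aa1 and Hspb1 the partners were mainly processed pseudogenes, copies of the mRNA that were pasted back into the genome. Across these 3 genes, 13 pseudogenes held at least 10% of the words, and 5 of the 13 were matched by symbol to a level in the table.

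For Hsp90aa1 the copies were not minor. Gm12346 had 3558 normalized counts and Gm5844, at chr3:18008806-18010996 and 99.0% identical, had 975. Their sum was 56.8% of the level of Hsp90aa1 itself, although Gm12346 had only 15.5% of its words to itself and Gm5844 26.6%. Added to the gene, they brought Hsp90aa1 to 3814 per kilobase, 1.06-fold above Hsp90ab1, and the share of Hsp90ab1 in the pair to 48.4%. Whether reads listed under the pseudogenes came from Hsp90aa1 was not tested.

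For Hspa8 the closest copy, Gm15459 at chr5:5781615-5783555, differed at 5 of 1941 coding positions, held 74.3% of the words and was listed at 0. Gm8355 at chr10:14745362-14747302, which differed at 25 positions, had 1090 normalized counts, or 8.65% of the level of Hspa8. For Hspb1 the copy Hsp25-ps1 at chr13:45078498-45079127, with 4 differences in 630 bases, had 35.0 normalized counts, or 11.3% of the level of Hspb1. The coding gene Gm9817, which overlaps Hsp25-ps1 and held 49.5% of the words of Hspb1, had 0.153. Adding these copies left Hspa8 first, with 94.8% of the HSP70 sum, and Hspb1 in place 4 after a gap of 9.69-fold.

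Genes outside the chaperones show how levels went with shared sequence in this table. Of the 13 mitochondrial protein genes, 5 had at most 2.41% of their 100-base words to themselves (mt-Atp6, mt-Co2, mt-Co3, mt-Nd3 and mt-Nd4l), and these stood at 9.91 to 314.7 normalized counts per kilobase. Their neighbours on the same genome stood far higher, from 1820 for mt-Nd6 to 49301 for mt-Co1, with the short mt-Atp8 as the exception, at 21.8 with all of its words its own. Among 75 ribosomal protein genes the 8 with under 20% own words had a median of 242 per kilobase and the 22 with over 80% had a median of 4285 (Spearman's rho 0.47 over the 75 genes, which are not independent). With 31-base words that gap was smaller, with a median of 617 for the 16 genes under 20% and 2093 for the 7 over 80%, and rho fell to 0.17. The split of the mitochondrial genes was the same at both word lengths, whereas that of the ribosomal protein genes depended on it. How far this bears on Hspa8, Hspa1a, Hspa1b, Hsp90aa1 and Hspb1 was not tested.

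How reads that fit several genes were counted is not given in the sources used here, and Sailfish, which the study's methods name, shares such reads out. The levels were also divided by the number of 100-base words a gene has to itself, a scale that has a meaning only if reads fitting several genes were left out. On this scale Hspa8 had 15018 normalized counts per 1000 own words, Hsp90aa1 4782 and Hsp90ab1 3729, so that the inducible HSP90 gene stood 1.28-fold above the constitutive one. Hspb1 followed with 880, after a gap of 4.24-fold. The inducible HSP70 genes moved up, Hspa1b to 326, next to Hsph1 at 340, and Hspa1a to 196, next to Bag3 at 201. Hsf1 was then the lowest at 168. Hspa8 was first and Hspb1 in place 4 on this scale as before, and the share of Hspa8 in the HSP70 sum was 96.6%.

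The 10 genes were then placed among 68 other chaperone and co-chaperone genes, all of which had a level. Per kilobase of the longest transcript, Hspa8 was first and Hsp90ab1 second of the 78, and Hsp90aa1 took place 5. Only Hspa5, the HSP70 of the endoplasmic reticulum, at 3170 and Hsp90b1, the HSP90 of the same compartment, at 2761 stood between them. The other 7 heat shock genes took places 43 to 70, and 8 of the 68 other genes lay below Hspa1a. The median was 264 for the 10 genes and 439 for the 68 others.

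Within their own classes the heat shock genes sat at different heights. The 11 other HSP70 family genes ran from 9.21 for Hspa1l to 3170 for Hspa5 with a median of 423, so Hspa8 lay above all of them and Hspa1a and Hspa1b below the median. The mitochondrial HSP90 gene Trap1 had 527. Hspb1, at 332, lay above the median of 136.0 of the 8 other small heat shock protein genes, which ran from 9.81 for Hspb9 to 1559 for the lens crystallin gene Cryaa. Dnajb1, at 264, was near the median of 307 of 16 other J-domain genes, between Dnajb5 at 47.6 and Dnajc3 at 1250. Hsf1 had 107, next to Hsf2 at 103, above Hsf4 at 79.2 and Hsf5 at 1.43, and far below Hsbp1, which encodes a protein that binds HSF1, at 1054. The lengths of Hsf1 and Hsf2, 3133 and 4527 bases, are those of transcripts with a retained intron. Their longest protein-coding transcripts have 2104 and 2604 bases, so the order of these 2 genes depends on the length used. Bag3 lay below the median of 403 of the 17 other BAG and co-chaperone genes, which ran from Bag2 at 80.4 to St13 at 1821. The 10 chaperonin genes were the most even class, from 766 for Cct7 to 1807 for Cct5. The length of Cct7 is that of a transcript of 3884 bases with a retained intron. Its longest protein-coding transcript has 2441 bases, so its lowest place depends on the length used. Several other listed genes, among them Hsp90b1, Dnajb5 and St13, were also divided by the length of such a transcript.

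**Figure D4:**
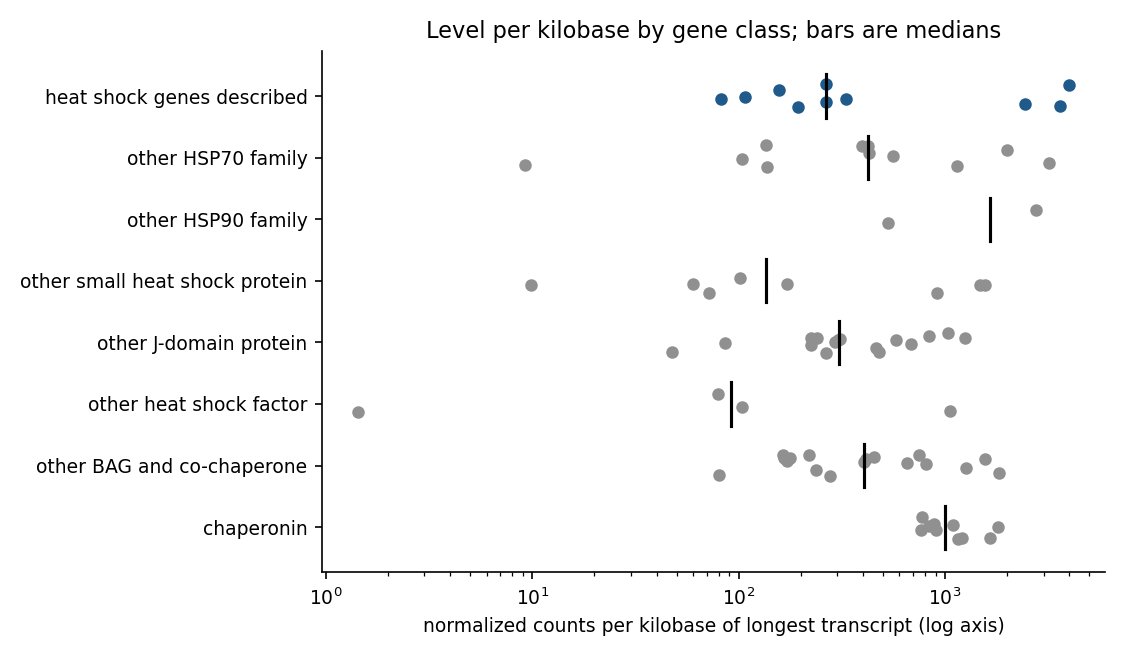
Level per kilobase of the longest transcript, in normalized counts on a log axis, for the 10 heat shock genes described (blue) and 68 other chaperone genes by class (grey). Each point is 1 gene, black bars are class medians, and vertical scatter within a row only separates points. Hspa8, Hsp90ab1 and Hsp90aa1 lie at 2433 to 3990, apart from the other 7 heat shock genes, with Hspa5 at 3170 and Hsp90b1 at 2761 in the same range, and the median of the 10 is 264.

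Promoters were examined for the element that HSF1 binds. RefSeq promoter windows on GRCm38.p6, from 250 bases before to 50 after the start, were at hand for 27025 genes and for 6 of the 10 heat shock genes (Hspa1a, Hspa1b, Hsph1, Hspb1, Dnajb1 and Bag3). The element searched was GAANNTTCNNGAA or, on the other strand, TTCNNGAANNTTC. It was matched at all 9 fixed bases in 179 of all genes (0.662%) and in 1 of the 6, Hsph1, whose exact match lay after the start. With 1 mismatch allowed it was present in 2202 genes (8.15%) and in 4 of the 6, namely Hspa1a, Hspa1b, Hsph1 and Hspb1. Matches on 1 strand can overlap matches on the other, and Hsph1 had several, among them 2 before the start, at -33 to -21 and -28 to -16 from one of its 2 listed starts and at -54 to -42 and -49 to -37 from the other. Both lie inside the gene span given above, whose minus-strand start is base 149636376. They come before the RefSeq starts only. Dnajb1 and Bag3 held no match at this setting, which says only that these letters are not in this window.

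Matches before the start in Hspa1a, Hspa1b and Hspb1 are printed with their flanks, the matched stretch in capitals, and each carries 1 mismatch to the element. Hspa1a and Hspa1b each held 2 matches that overlap, one for each strand's form of the element. In Hspa1a the first spans bases -114 to -102 from the start within chr17:34972246-34972282 on the minus strand, and the second spans -109 to -97 within chr17:34972241-34972277. In Hspa1b both lie at the same distances, within chr17:34959328-34959364 and chr17:34959323-34959359. The printed sequences are the same in both genes, whose 250 bases before the start differed at 3 positions (98.8% identical). In Hspb1 the match spans -117 to -105 within chr5:135887790-135887826 on the plus strand.
Hspa1a and Hspa1b, first match: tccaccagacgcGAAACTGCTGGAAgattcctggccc
Hspa1a and Hspa1b, second match: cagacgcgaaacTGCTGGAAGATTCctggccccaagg
Hspb1: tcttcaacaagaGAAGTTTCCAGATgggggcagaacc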

How the data were processed

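RNA from RPE/choroid of 3 young and 3 aged mice was sequenced in pairs of 100-base reads after ribosomal RNA removal with a stranded kit. Per the study's methods the authors trimmed reads with BBDuk, mapped them with STAR to Ensembl transcripts of GRCm38, estimated TPM with Sailfish, turned it into normalized counts by total count and ran DESeq2. The deposited signal used here is the authors' mean of normalized counts over all 6 libraries, which is never negative. It was treated as not divided by length, since levels rose with transcript length. The other deposited columns hold the authors' own comparison of the ages (log2 fold change, its error, test statistic, p-value and adjusted p-value). They were not used, and no test was run. The table held 0 columns for other samples and no depth per library, so precision is unknown. Of its symbols, 25 had become dates and were left as they stand.

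Lengths, coding parts, positions and shared words came from GENCODE M21 transcripts (GRCm38). The words of a gene were taken from the coding transcript with the longest coding part and sought in all transcripts on both strands. The computing used Python 3.11.15, numpy 2.4.6, pandas 2.3.3, scipy 1.17.1, Biopython 1.88 and matplotlib 3.10.9, and the word and percentile counts were tested on simulated data. The genes described and all lists were chosen with earlier results of these data known. Named genes are all 10 heat shock genes, the highest and lowest of each chaperone class, and every gene of classes of 4 or fewer. Pseudogenes, ribosomal protein genes and mitochondrial genes were named after their values were seen. Alternatives were the genes a percentile is taken among, the length, the genes in a share, the word length and the promoter setting. The longest coding transcript, the added copies, the division by own words and both word lengths for the ribosomal protein and mitochondrial genes were chosen after seeing the data.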

Additional observations from a re-analysis of the deposited data

How the results depend on the processing

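Of the 10 genes, 3 lay in the top 10% by level in all 4 reference sets of genes. The number above the median gene was 10 of 10 among genes above 0 and among all symbols, 8 among coding genes and 7 among genes of at least 10 normalized counts. The order per kilobase was more sensitive. The number of genes that held their place was 8 with coding length and with copies added, 6 with the longest coding transcript, 3 with own 31-base words, and 2 with the median coding transcript and with own 100-base words. The share of Hspa8 was 94.8% without division by length, 91.2% with Hspa1l and Hspa2, 95.6% with the longest coding transcript, 94.8% with copies, and 97.1% and 96.6% with own words of 31 and 100 bases. The share of Hsp90ab1 was 53.1% without division by length, 59.6% with the longest coding transcript, 48.4% with copies, and 39.7% and 43.8% with own words of 31 and 100 bases. Genes that shared most of their words numbered 5, 5 and 3 with words of 31, 21 and 100 bases. Of the 6 genes with a promoter window, 4 held an element with 1 mismatch allowed, against 8.15% of all 27025 genes. Before the start and with no mismatch, 0 of the 6 held it, against 0.514% of all genes.

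No paired analysis was possible because levels were read as means pooled over all mice, and leaving out each replicate could not be run for the same reason. Depth per library is unknown here. All levels pool young and aged mice, so a gene that differs between the ages has a level that describes neither group.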
